A study of Mus musculus with 12 samples.

Results

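Bone morphogenetic proteins (BMPs) are secreted signals of the TGF-beta family. They bind paired serine/threonine kinase receptors on the cell surface, which phosphorylate SMAD proteins that enter the nucleus and switch on genes such as those of the Id family. Secreted antagonists, among them noggin and gremlin, trap the ligands before they reach a receptor. In skin the pathway is best known from the hair follicle, where BMP signals hold stem cells at rest between growth phases, noggin helps to start growth, and BMP receptor activity is needed again for the hair shaft to form.

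The 10 genes described here are the ligands Bmp2, Bmp4, Bmp6, Bmp7 and Bmp8a, the secreted antagonists Nog (noggin) and Grem1 (gremlin 1), the membrane pseudoreceptor Bambi, and the target genes Id1 and Id3. They were taken by symbol from the 18505 rows of an expression table of mouse back skin, and all 10 were found. The table holds RNA-seq of 12 samples from wild-type male BALB/c mice on day 10, 4 in each of 3 groups. Control skin was shaved and coated with petroleum jelly. The IMQ + NS group received imiquimod (IMQ) cream, an agonist of Toll-like receptors that brings on psoriasis-like lesions, followed by saline (NS) under gauze and film. The IMQ + BZLF group received the same cream followed by Banzhilian formula (BZLF), a mixture of plant materials and cicada slough, under the same dressing. The dose of BZLF in the sequenced samples is not given in the sources used here. The cream and the dressing came together, so their parts in any difference from control skin cannot be told apart.

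Each value is an FPKM, a fragment count scaled by transcript length and by the depth of the sample. This is meant to make levels comparable between genes and between samples, but the sample sums of control and imiquimod-treated skin did not overlap. Differences in log2(FPKM + 0.1) were tested with limma for 15288 genes, those whose FPKM averaged 0.1 or more, and p-values were adjusted over all of them (Benjamini-Hochberg). A call was made when the adjusted p was below 0.05 and the log2 fold change exceeded 1 in size. A two-sided exact permutation test over the 70 ways to split 4 and 4 samples was added for single genes, and its smallest possible p is 0.0286. The labels do not tie samples to single animals, so p-values measure the spread between these samples. In bulk skin, fewer cells of a type and less RNA per cell cannot be told apart.

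All 10 genes passed the filter on low values. In IMQ + NS against control, 3 of the 10 were called higher (Bmp2, Bmp8a and Bambi) and 0 lower (0 also at an unadjusted p with the same fold), where 11.4% of all genes tested were called higher and 11.0% lower. Without the fold threshold, 5 of the 10 were higher (with Bmp7 and Grem1) and 1, Id3, was lower, against 29.0% and 27.1% of all genes. The median log2 fold change of the 10 genes was 0.48, and that of all genes tested was 0.05. In IMQ + BZLF against control the same 3 genes were called higher and 0 lower, against 9.65% and 10.1% of all genes, and the medians were 0.29 and -0.02. On the adjusted p alone, 5 were higher (Bmp2, Bmp6, Bmp7, Bmp8a and Bambi) and Id3 was lower, against 23.8% and 29.2%. The counts of called genes stayed at 3 and 0 in both comparisons with any single sample left out.

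**Figure D1:**
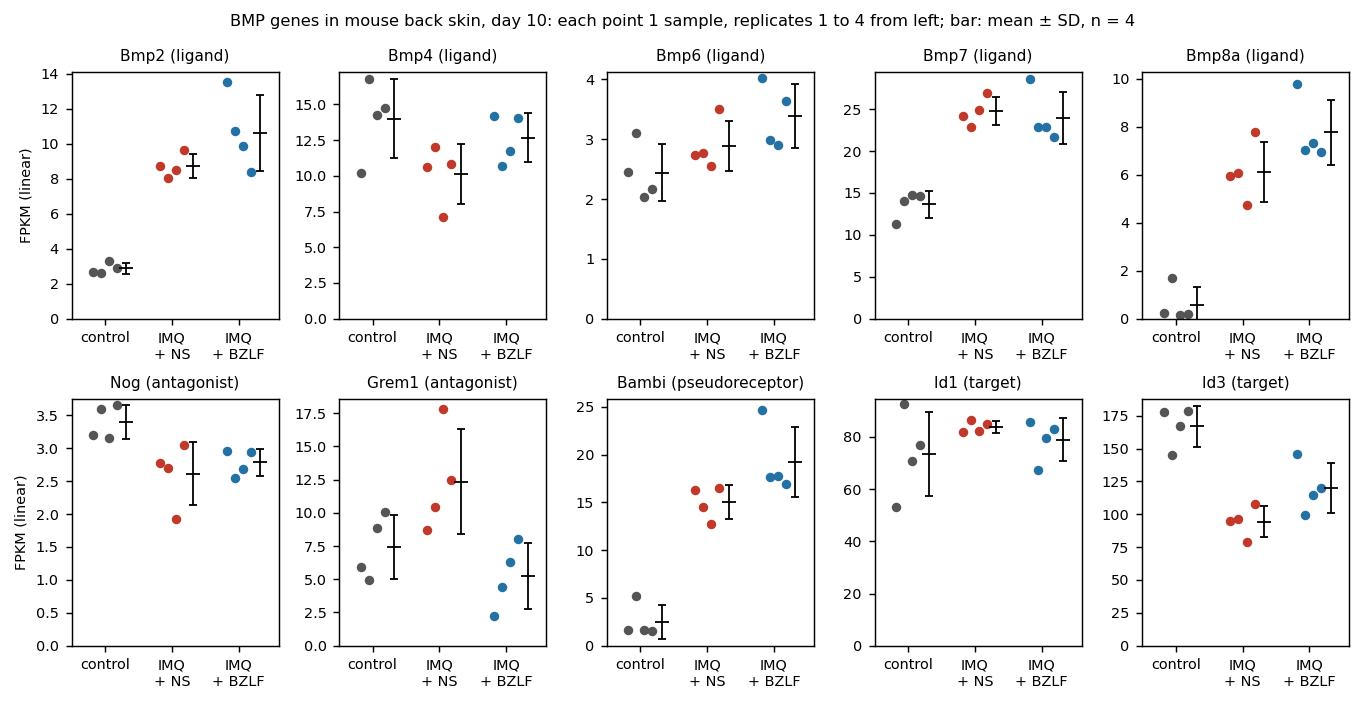
FPKM (vertical axes, linear, from 0) of the 10 BMP genes in the 12 samples, with replicates 1 to 4 of each group from left to right. Bars give the mean ± SD of 4 samples, and the lower bar of Bmp8a in control skin is cut at 0. Bmp2, Bmp8a and Bambi stand higher in all 8 imiquimod-treated samples than in any control, Id3 stands lower in all 4 IMQ + NS samples, and Grem1 has its lowest mean in IMQ + BZLF.

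In IMQ + BZLF against IMQ + NS, limma called 0 of the 10 genes in either direction, where 0.321% of all genes tested were called higher and 2.20% lower. On the adjusted p alone the count was also 0, against 1.28% and 5.17% of all genes. At an unadjusted p below 0.05 there were 3 genes, Bambi and Id3 as higher and Grem1 as lower, where 7.96% of all genes tested were higher and 14.8% lower. The median log2 fold change of the 10 genes was 0.24, with that of all genes at -0.02. The 2 comparisons with control skin share their 4 control samples, and the 2 comparisons of IMQ + NS share its 4 samples, so their results are not independent.

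**Figure D2:**
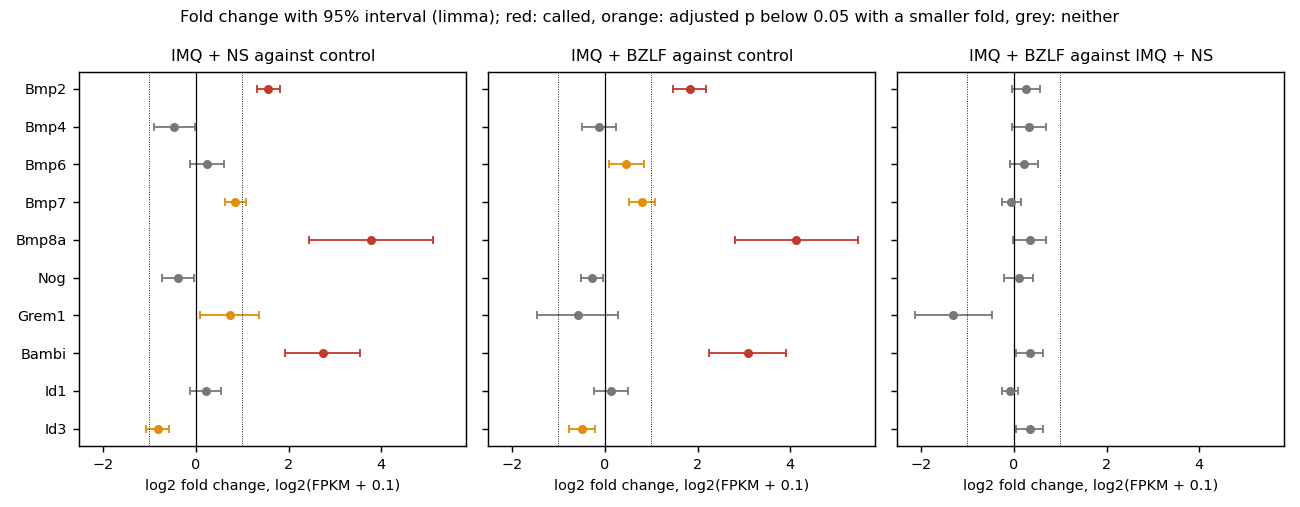
Log2 fold changes of the 10 BMP genes on the log2(FPKM + 0.1) scale (horizontal axis) with 95% intervals from limma, in 3 panels for the 3 comparisons, with dotted lines at -1 and 1. Red points were called, orange points passed the adjusted p with a smaller fold, and grey points did neither. Bmp8a lies farthest to the right against control in both groups, at 3.79 and 4.13, and in the comparison of BZLF with saline Grem1 alone lies beyond a dotted line, at -1.31.

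A stretch of 250 bases before the start of a gene is a common place for regulatory sites, and 4 such stretches are shown for genes that moved in opposite directions, Bmp8a, Smad6 and Msx2 being higher and Id3 lower after imiquimod. They were read from RefSeq sequences of build GRCm38.p6, 5′ to 3′ on the strand of the gene. Capitals mark the 5-letter SMAD-binding element CAGAC or its reverse complement GTCTG. The 6-letter motif GGCGCC, a palindrome that SMAD proteins activated by BMPs are known to bind, was searched too and does not overlap the first motif.
Bmp8a promoter, chr4:123343253-123343502, minus strand: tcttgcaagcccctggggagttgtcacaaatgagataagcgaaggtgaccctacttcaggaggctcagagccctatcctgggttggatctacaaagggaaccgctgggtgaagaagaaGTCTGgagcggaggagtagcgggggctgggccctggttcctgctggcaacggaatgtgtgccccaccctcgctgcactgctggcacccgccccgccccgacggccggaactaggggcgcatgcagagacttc
Id3 promoter, chr4:136143572-136143821, plus strand: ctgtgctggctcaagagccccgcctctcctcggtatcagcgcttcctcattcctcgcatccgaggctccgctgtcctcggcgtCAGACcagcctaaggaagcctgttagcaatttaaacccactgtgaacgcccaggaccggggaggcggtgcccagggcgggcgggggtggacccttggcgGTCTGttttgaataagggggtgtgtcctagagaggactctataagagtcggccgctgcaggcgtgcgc
Smad6 promoter, chr9:64022060-64022309, minus strand: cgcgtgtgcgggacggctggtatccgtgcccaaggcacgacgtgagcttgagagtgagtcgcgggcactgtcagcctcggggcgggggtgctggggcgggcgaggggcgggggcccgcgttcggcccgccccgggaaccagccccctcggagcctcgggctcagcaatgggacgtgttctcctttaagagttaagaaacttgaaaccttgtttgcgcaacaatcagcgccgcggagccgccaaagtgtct
Msx2 promoter, chr13:53472781-53473030, minus strand: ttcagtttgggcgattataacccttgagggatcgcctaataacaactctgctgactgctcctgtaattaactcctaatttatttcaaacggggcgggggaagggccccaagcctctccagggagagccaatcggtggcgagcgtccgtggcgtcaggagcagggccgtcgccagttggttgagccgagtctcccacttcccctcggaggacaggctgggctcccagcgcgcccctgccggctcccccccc

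Bmp8a held 1 match to CAGAC or its reverse complement, which began 132 bases before the gene's start, and Id3 held 2, at 167 and 68 bases. Smad6 and Msx2 held no match to either motif in these windows. Promoters on chromosome 18, where Bambi lies, were left out of the search in listed genes but kept in the count over all windows. A window was then read for 5 of the 10 BMP genes (Bmp4, Bmp6, Bmp8a, Grem1 and Id3). Of these, 4 held CAGAC on either strand, as did 42.2% of 32851 promoter windows of the same length. GGCGCC was held by 1 of the 5, Grem1, 78 bases before its start, and by 9.59% of all windows. Of the other pathway genes, 35 had a window, and some of these had several. In at least 1 window, 15 of the 35 held CAGAC on either strand and 10 held GGCGCC. A match is a string of letters and not a measured binding site.

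Among the ligands, Bmp2 rose in imiquimod-treated skin. Bmp2 (chromosome 2, 133552159 to 133562896, plus strand, GRCm38.p6, as are the positions of the other genes) encodes a ligand made in the growing hair matrix. Its FPKM was 2.69, 2.64, 3.32 and 2.90 in control samples 1 to 4, 8.70, 8.06, 8.48 and 9.64 in IMQ + NS, and 13.5, 10.7, 9.88 and 8.38 in IMQ + BZLF. Every imiquimod-treated sample lay above every control, and the widest spread was in IMQ + BZLF. The means were 2.89 ± 0.309, 8.72 ± 0.668 and 10.6 ± 2.17 (SD, n = 4). Against control, the IMQ + NS samples had a log2 fold change of 1.56 (SE 0.11) (limma, adjusted p = 1.08e-05) and the IMQ + BZLF samples one of 1.83 (SE 0.15) (limma, adjusted p = 5.29e-05). Between the imiquimod groups the difference was 0.26, with a 95% interval of -0.04 to 0.56 (limma, adjusted p = 0.275).

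Bmp8a showed the largest fold of the 10 genes against control. It lies on chromosome 4, 123312645 to 123343252, minus strand, and encodes a ligand best known from germ cells and adipose tissue. Its FPKM was 0.22, 1.72, 0.14 and 0.18 in the controls, 5.94, 6.09, 4.72 and 7.77 in IMQ + NS, and 9.79, 7.02, 7.32 and 6.96 in IMQ + BZLF. Control replicate 2 stood well above the other 3 controls but below every imiquimod-treated sample. The means of 0.564 ± 0.769, 6.13 ± 1.25 and 7.77 ± 1.35 (SD, n = 4) gave ratios to control of 10.9 and 13.8. On the log2 scale the difference from control was 3.79 (SE 0.59) in IMQ + NS (limma, adjusted p = 7.8e-04) and 4.13 (SE 0.58) in IMQ + BZLF (limma, adjusted p = 6.37e-04).

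The size of the Bmp8a difference depends on the low control values. With control replicate 2 left out, the log2 fold changes were 4.47 and 4.81, and the ratios to the mean of the other 3 controls were 34.1 and 43.3. With 1 instead of 0.1 added before the logarithm, the value in IMQ + NS was 2.28. Bmp8a has a close paralogue, Bmp8b, listed at means of 0.00507, 0.0312 and 0.0101 FPKM in control, IMQ + NS and IMQ + BZLF, and how reads shared by the pair were assigned is not given in the sources used here. Bmp8a also overlaps Oxct2a on the same strand.

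Bmp7 rose by less than a fold of 2 but with little spread. It lies on chromosome 2, 172868012 to 172940321, minus strand, and encodes a ligand made in many epithelia. Its FPKM was 11.3, 14.0, 14.7 and 14.7 in the controls, 24.2, 22.9, 24.9 and 27.0 in IMQ + NS, and 28.6, 22.9, 22.8 and 21.7 in IMQ + BZLF. The controls and the imiquimod-treated samples did not overlap, while the imiquimod groups covered nearly the same range. Bmp7 was higher than in control by 0.86 on the log2 scale in IMQ + NS (limma, adjusted p = 2.13e-04) and 0.81 in IMQ + BZLF (limma, adjusted p = 8.71e-04). Between the imiquimod groups it was -0.05, with a 95% interval of -0.26 to 0.16, and this sign turned under other scalings of the samples.

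Bmp4 and Bmp6 did not pass the test in IMQ + NS as fitted. Bmp4 (chromosome 14, 46383525 to 46390669, minus strand) is a ligand made in the dermis and dermal papilla. Its FPKM was 10.2, 16.8, 14.2 and 14.7 in the controls, 10.6, 12.02, 7.11 and 10.8 in IMQ + NS, and 14.2, 10.7, 11.7 and 14.1 in IMQ + BZLF. All 3 groups overlapped. Against control its log2 difference was -0.46 in IMQ + NS (limma, adjusted p = 0.0724) and -0.13 in IMQ + BZLF (limma, adjusted p = 0.529), and between the imiquimod groups it was 0.33 with a 95% interval of -0.03 to 0.70. In IMQ + NS the adjusted p of Bmp4 ran from 0.0188 to 0.165 over the 21 alternatives and passed under all 3 other scalings of the samples.

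Bmp6 (chromosome 13, 38345716 to 38500314, plus strand), a ligand known for inducing hepcidin in the liver and also made in skin, ranged from 2.04 to 3.11 FPKM in the controls, from 2.55 to 3.50 in IMQ + NS and from 2.91 to 4.02 in IMQ + BZLF. Neighbouring groups overlapped. The log2 difference from control was 0.24 in IMQ + NS (limma, adjusted p = 0.229) and 0.46 in IMQ + BZLF (limma, adjusted p = 0.0441), where the exact permutation p was 0.0857. Over the alternatives its adjusted p from limma ran from 0.038 to 0.596 in IMQ + NS, the lowest without control replicate 2, and from 0.0063 to 0.115 in IMQ + BZLF. Bmp4 and Bmp6 overlap genes on the opposite strand, Gm15217 and Gm15222 for Bmp4 and Txndc5 and 4930579J19Rik for Bmp6, and it is not settled from the sources used here whether the counting used strand.

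The balance of Bmp2 to Bmp4 was computed in each sample after the single values had been seen, and is given as a description with no test. The ratio of Bmp2 to Bmp4 FPKM was between 0.157 and 0.264 in the controls, between 0.671 and 1.19 in IMQ + NS, and between 0.596 and 1.001 in IMQ + BZLF. The mean ratio was 0.213 in control skin, 0.893 in IMQ + NS and 0.848 in IMQ + BZLF. The controls did not overlap with either imiquimod group.

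Of the antagonists, Bambi had the largest difference from control. Bambi encodes a membrane protein that resembles a type I receptor but lacks the kinase domain, and it dampens TGF-beta and BMP signalling. It lies on chromosome 18, 3507011 to 3516404, plus strand. Its FPKM was 1.59, 5.19, 1.63 and 1.56 in the controls, 16.3, 14.5, 12.8 and 16.5 in IMQ + NS, and 24.6, 17.6, 17.7 and 16.9 in IMQ + BZLF. Control replicate 2 again stood above the other controls, and IMQ + BZLF replicate 1 above all other samples. The means were 2.50 ± 1.80, 15.0 ± 1.75 and 19.2 ± 3.63 (SD, n = 4), at ratios to control of 6.03 and 7.71.

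Bambi differed from control by a log2 fold change of 2.74 (SE 0.36) in IMQ + NS (limma, adjusted p = 3.16e-04) and 3.08 (SE 0.36) in IMQ + BZLF (limma, adjusted p = 2.92e-04). With control replicate 2 left out, these were 3.15 and 3.49, and the ratios to the mean of the other 3 controls were 9.42 and 12.05. All 4 IMQ + BZLF samples lay above all 4 IMQ + NS samples, by a log2 difference of 0.34 with a 95% interval of 0.05 to 0.64. That difference did not pass adjustment (limma, adjusted p = 0.159), and its exact permutation p of 0.0286 is the smallest the test can give.

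Nog lies on chromosome 11, 89300638 to 89302559, minus strand. Its FPKM was 3.2, 3.59, 3.15 and 3.66 in the controls, 2.77, 2.69, 1.93 and 3.05 in IMQ + NS, and 2.96, 2.55, 2.69 and 2.95 in IMQ + BZLF. Every control lay above every imiquimod-treated sample, by a small margin. The log2 fold change was -0.39 in IMQ + NS (limma, adjusted p = 0.0549) and -0.28 in IMQ + BZLF (limma, adjusted p = 0.0564), so that neither passed the test, while the exact permutation p was 0.0286 in both. Over the 21 alternatives the adjusted p from limma ran from 0.0228 to 0.124 in IMQ + NS, where it passed under all 3 other scalings, and from 0.0229 to 0.15 in IMQ + BZLF. Between the imiquimod groups the difference was 0.11, with a 95% interval of -0.21 to 0.42.

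Grem1 had a different order of groups from the other 9 genes, with the highest mean in IMQ + NS and the lowest in IMQ + BZLF. It lies on chromosome 2, 113748675 to 113758648, minus strand, and encodes an antagonist made mainly by fibroblasts. Its FPKM was 5.89, 4.97, 8.86 and 10.1 in the controls, 8.68, 10.4, 17.8 and 12.5 in IMQ + NS, and 2.25, 4.45, 6.28 and 8.04 in IMQ + BZLF. Each IMQ + NS sample lay above each IMQ + BZLF sample, whereas the controls overlapped with both. The means were 7.45 ± 2.41, 12.3 ± 3.95 and 5.25 ± 2.48 (SD, n = 4).

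The Grem1 mean in IMQ + BZLF was 2.35-fold lower than in IMQ + NS, with a log2 difference of -1.31 (SE 0.37, 95% interval -2.14 to -0.48). It did not pass adjustment (limma, p = 0.00591, adjusted p = 0.0696), and the exact permutation p was 0.0286. With IMQ + BZLF replicate 4 left out the adjusted p from limma was 0.0446, and with IMQ + NS replicate 3 left out it was 0.183. The log2 difference of 0.73 between IMQ + NS and control was at the threshold (limma, adjusted p = 0.0497, exact permutation p = 0.0857), and over the 21 alternatives its adjusted p ran from 0.0135 to 0.148. Against control, IMQ + BZLF differed by -0.58 (limma, adjusted p = 0.23).

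Of the targets, Id3 fell in imiquimod-treated skin and Id1 did not pass the test as fitted. Both encode helix-loop-helix proteins without a DNA-binding region, which hold back differentiation factors and are direct responders to BMP signals. They are the most abundant of the 10 genes in every group. Id3 (chromosome 4, 136143822 to 136145392, plus strand) had an FPKM of 178, 145, 167 and 178 in the controls, 95, 96.6, 78.6 and 108 in IMQ + NS, and 145, 99.4, 114.5 and 120 in IMQ + BZLF. All IMQ + NS samples lay below all controls, and IMQ + BZLF replicate 1 reached the level of the lowest control.

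Id3 fell by 0.83 on the log2 scale in IMQ + NS against control (SE 0.11, limma, adjusted p = 3.5e-04) and by 0.49 in IMQ + BZLF against control (SE 0.12, limma, adjusted p = 0.0102, exact permutation p = 0.0571). The means were 167 ± 15.6, 94.5 ± 11.9 and 120 ± 19.2 (SD, n = 4). Between the imiquimod groups the difference was 0.34, with a 95% interval of 0.05 to 0.62, and did not pass adjustment (limma, adjusted p = 0.152).

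Id1 (chromosome 2, 152736251 to 152737410, plus strand) had an FPKM of 53.3, 92.6, 70.9 and 77.0 in the controls, 81.8, 86.3, 82.3 and 84.8 in IMQ + NS, and 85.7, 67.2, 79.7 and 83.2 in IMQ + BZLF. The groups overlapped, and the controls were the most spread. Id1 differed from control by 0.22 on the log2 scale in IMQ + NS, with a 95% interval of -0.12 to 0.55 (limma, adjusted p = 0.235), and 0.13 in IMQ + BZLF (limma, adjusted p = 0.532). Over the 21 alternatives the adjusted p of Id1 from limma ran from 0.0307 to 0.669 in IMQ + NS. In IMQ + BZLF it ran from 0.144 to 0.924. As a description, the ratio of Id3 to Id1 was 1.56 to 3.33 in the controls, 0.955 to 1.27 in IMQ + NS and 1.44 to 1.70 in IMQ + BZLF.

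The order of the mean FPKM levels differed between the groups. In control skin Id3 and Id1 were followed by Bmp4 and Bmp7, whose samples overlapped (means 14.0 and 13.7), then Grem1, Nog, Bmp2, Bambi and Bmp6, with Bmp8a last. Bmp2, Bambi and Bmp6 overlapped with one another, Nog overlapped with Bmp2 and Bambi, and Bambi also with Grem1 and Bmp8a. Bambi ranked above Bmp6 through control replicate 2 and lay below it in each of the other controls. In IMQ + NS, Bmp7 and Bambi came next after the Id genes (means 24.8 and 15.0) without overlap, followed by Grem1, Bmp4, Bmp2, Bmp8a and Bmp6, with Nog last at 2.61. Bambi overlapped with Grem1, Grem1 with Bmp4 and Bmp2, Bmp4 with Bmp2 and Bmp8a, and Bmp6 with Nog. In IMQ + BZLF the order below Bambi was Bmp4, Bmp2, Bmp8a, Grem1, Bmp6 and Nog (mean 2.79). From Bmp4 to Nog, each gene overlapped with the next.

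For each of the 10 genes, the tested gene with the most similar pattern was taken among those averaging 1 FPKM or more, by the Pearson correlation of log2(FPKM + 0.1) over the 12 samples. All 12 samples are in 3 treatment groups, so a correlation follows group differences as well as sample differences. For Bambi it was Fhod3 (r = 0.998), for Bmp8a Dok4 (r = 0.998), for Bmp2 Syt7 (r = 0.995) and for Bmp7 Clcn3 (r = 0.989). For Id1 it was Trim16 (r = 0.964), for Id3 Klhl40 (r = 0.957), for Grem1 Pik3cg (r = 0.949) and for Bmp6 Ptpn9 (r = 0.94). The lowest were Rmdn3 for Nog (r = 0.905) and Zc3h7b for Bmp4 (r = 0.87). Bambi and Bmp8a correlated with each other at r = 0.996.

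Of 50 other genes of the pathway, 49 had a row and 43 were tested. In IMQ + NS against control 6 were called higher (Msx2, Dlx3, Smad6, Smad7, Bmper and Id4) and 8 lower (Hjv, Chrdl1, Chrd, Bmp5, Gdf10, Nbl1, Rgmb and Acvrl1), where 11.4% and 11.0% of all genes tested were called. The 6 of 43 are near that background. The median of the 43 log2 fold changes was -0.30. The SMAD list had 2 of 8 tested genes called higher and 0 lower, and the target list 3 of 7 and 0. The other ligands had 0 of 5 called higher and 2 lower, the receptors and co-receptors 0 of 11 and 3, and the other antagonists 1 of 12 and 3.

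**Figure D3:**
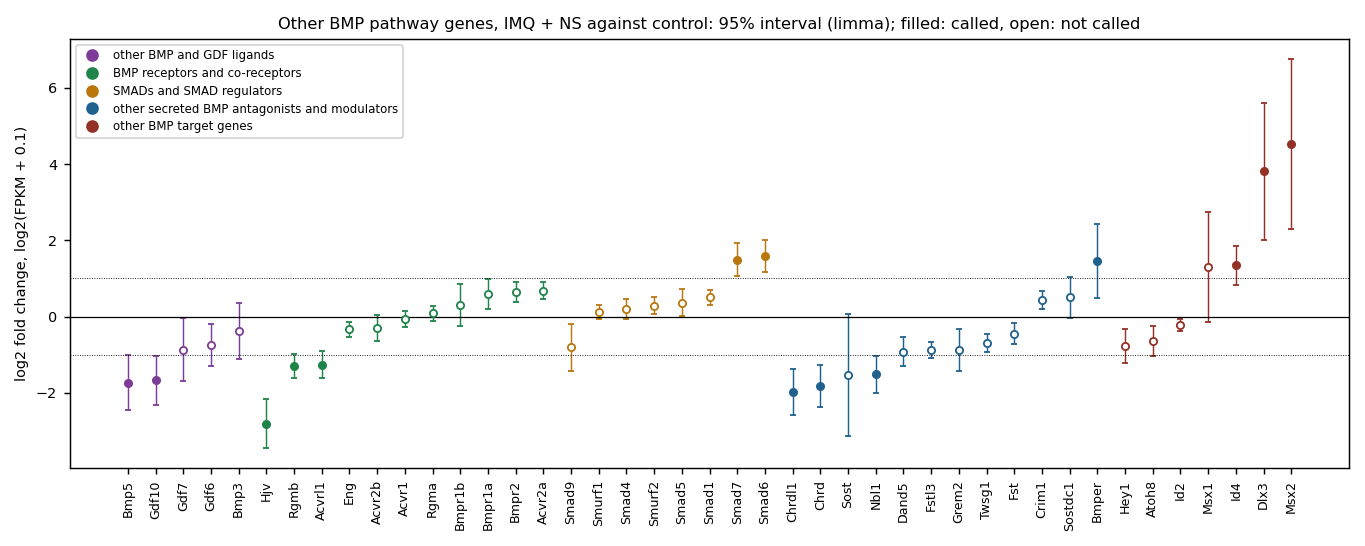
Log2 fold changes on the log2(FPKM + 0.1) scale (vertical axis) with 95% intervals from limma for the 43 other pathway genes tested in IMQ + NS against control, ordered by list, with dotted lines at -1 and 1. Filled points were called. The inhibitory SMADs Smad6 and Smad7 stand above 1, Msx2 and Dlx3 are the highest with wide intervals, and 8 ligands, receptors and antagonists stand below -1 as filled points.

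Smad6 and Smad7, inhibitory SMADs that BMP signals induce and that act as feedback, rose together. Smad6 was at 3.73 ± 0.987 FPKM in controls, 11.3 ± 1.75 in IMQ + NS and 14.3 ± 2.69 in IMQ + BZLF (SD, n = 4), with a log2 fold change of 1.59 in IMQ + NS (limma, adjusted p = 1.72e-04) and 1.92 in IMQ + BZLF against control (limma, adjusted p = 1.26e-04). Smad7 went from 2.94 to 8.21 in IMQ + NS, a log2 fold change of 1.49 (limma, adjusted p = 2.92e-04). In control replicate 2, Smad6 was at 5.20 and Smad7 at 4.31 FPKM, against 3.12 to 3.39 and 2.37 to 2.68 in the other controls. Smad1, which carries the signal, rose by 0.51 (limma, adjusted p = 0.00106), while Smad5 at 0.37 and Smad4 at 0.20 did not pass (limma, adjusted p = 0.0649 and 0.175).

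Of the targets, Msx2 and Dlx3, homeobox factors of the hair matrix, had log2 fold changes of 4.53 (limma, adjusted p = 0.00446) and 3.81 (limma, adjusted p = 0.00353) in IMQ + NS. In control replicate 2, Msx2 was at 24.0 and Dlx3 at 60.5 FPKM, against 0.584 to 2.15 and 3.72 to 5.61 in the other controls. The ratio of the IMQ + NS mean to control was 8.10 for Msx2 and 6.62 for Dlx3 with all 4 controls, and 47.5 and 27.2 against the mean of the other 3. Id2, another Id gene, fell by 0.21 (limma, adjusted p = 0.0233). Msx1 was called higher in IMQ + BZLF against control (log2 fold change 1.79, limma, adjusted p = 0.0353), but the groups overlapped (exact permutation p = 0.114), with control replicate 2 at 16.1 FPKM and the other controls between 1.33 and 3.86. The call was lost when control replicate 1, 3 or 4 or any one IMQ + BZLF sample was left out, and without control replicate 2 Msx1 was called higher in IMQ + NS too. Its difference between the imiquimod groups did not pass (limma, adjusted p = 0.207).

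Among receptors, Bmpr1a and Bmpr2 rose by 0.60 and 0.65 on the log2 scale in IMQ + NS (limma, adjusted p = 0.0177 and 0.00167). For Bmpr1a the groups overlapped (exact permutation p = 0.0857), with control replicate 2 at 30.1 FPKM and the other controls between 17.0 and 18.2. The co-receptor Hjv, which is strongly expressed in muscle, fell from 22.8 to 3.02 FPKM (log2 fold change -2.80, limma, adjusted p = 8.26e-05). Of the secreted antagonists, Chrdl1 and Chrd fell by 1.97 and 1.82 (limma, adjusted p = 3.88e-04 and 3.63e-04) and Fst by 0.45 (limma, adjusted p = 0.0121), Sostdc1 was at 0.51 (limma, adjusted p = 0.0935), and Bmper, a modulator, rose by 1.45 (limma, adjusted p = 0.0187) with overlapping groups, a call that was lost without control replicate 3 and with 1 added before the logarithm. Among ligands, Bmp5 and Gdf10 fell by 1.73 and 1.67 (limma, adjusted p = 0.00196 and 0.00127).

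In IMQ + BZLF against control, 7 of the 43 were called higher and 7 lower, where 9.65% and 10.1% of all genes tested were called. The largest rises were Msx2 (4.88), Dlx3 (4.08), Smad6 (1.92), Msx1 (1.79) and Bmper (1.71), and the largest falls were Hjv (-2.65), Chrd (-1.79), Bmp5 (-1.73), Nbl1 (-1.71) and Chrdl1 (-1.42), all as log2 fold changes. Between IMQ + BZLF and IMQ + NS, limma called 1 of the 43, Gdf10, as higher and 0 as lower, and at an unadjusted p with the same fold 0 were lower as well. Of all genes tested, 0.321% were called higher and 2.20% lower there. Gdf10, a ligand related to Bmp3, was at 4.66 ± 2.12 FPKM in controls, 1.34 ± 0.340 in IMQ + NS and 2.86 ± 0.490 in IMQ + BZLF (SD, n = 4), a log2 difference of 1.06 between the imiquimod groups (limma, adjusted p = 0.0136). That call was lost when IMQ + BZLF replicate 2, IMQ + NS replicate 2 or IMQ + NS replicate 4 was left out. Bmpr1a, Bmpr2, Smad1, Smad5, Smad4, Smad6, Smad7, Id2, Msx2, Sostdc1, Fst and Chrd did not pass between the imiquimod groups, with log2 differences from -0.06 to 0.36.

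Markers of hair shaft and inner root sheath moved with Bmp8a and Bambi. Their 18 genes summed to between 33.2 and 90.5 FPKM in 3 controls, to 2283 in control replicate 2, to between 14330 and 19260 in IMQ + NS and to between 18160 and 26700 in IMQ + BZLF, where replicate 1 was the highest. All 18 were called higher against control in both imiquimod groups, at median log2 fold changes of 6.98 and 7.29, and 0 of 18 passed the adjusted p between the imiquimod groups, where all 18 stood higher in IMQ + BZLF at a median of 0.32 (limma). Control replicate 2 was at 9.55 times the mean of the other controls for Bmp8a and 3.25 times for Bambi, and at 0.887 times for Bmp2 and 1.03 times for Bmp7. For Bmp6, Id1, Bmp4 and Nog it was at 1.402, 1.382, 1.285 and 1.076 times, and for Id3 and Grem1 at 0.831 and 0.601 times. The ratio of Bmp2 in IMQ + NS to the other 3 controls was 2.93. The part of hair-forming cells in these results was not tested.

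**Figure D4:**
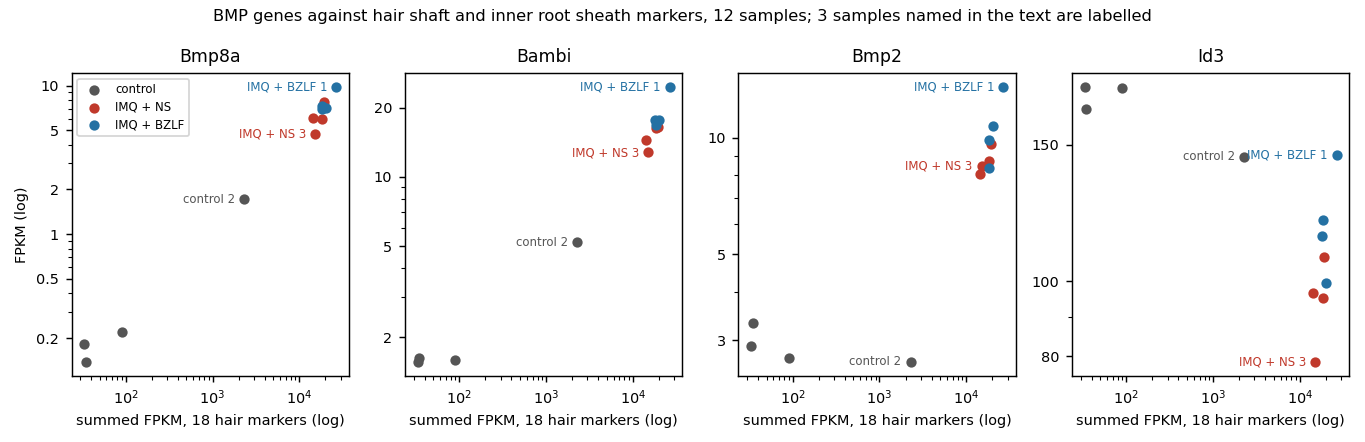
FPKM of Bmp8a, Bambi, Bmp2 and Id3 (vertical axes, log) against the summed FPKM of 18 hair shaft and inner root sheath markers (horizontal axes, log) in the 12 samples. Control replicate 2, at a sum of 2283, lies between the other controls and the imiquimod-treated samples for Bmp8a (1.72) and Bambi (5.19), and with the controls for Bmp2 (2.64).

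IMQ + BZLF replicate 1 was the highest of its group for 9 of the 10 genes and the lowest for the remaining one, Grem1, and IMQ + NS replicate 3 was the lowest of its group for 6 and the highest for Grem1. Summed levels of other markers moved with the groups too. In control, IMQ + NS and IMQ + BZLF samples, fibroblast markers ranged over 13570 to 19340, 3848 to 5106 and 4489 to 8415 FPKM (6 of 8 called lower in IMQ + NS), adipocyte markers over 4061 to 9107, 1979 to 3113 and 2684 to 3187 (6 of 10 lower), and skeletal muscle markers over 4171 to 10390, 721 to 1763 and 1300 to 1798 (9 of 9 lower). Neutrophil markers ranged over 33.6 to 52.6, 3144 to 9909 and 69.0 to 91.7 (9 of 9 higher, and 8 of 9 lower in IMQ + BZLF against IMQ + NS). Keratinocyte markers ranged over 2250 to 3479, 5062 to 7869 and 2450 to 4018 (4 of 9 higher). Dermal papilla markers ranged over 50.6 to 148, 89.6 to 106 and 68.2 to 92.2 (2 of 10 higher and 1 lower), and sebaceous markers over 1088 to 1507, 527 to 773 and 700 to 943 (1 of 8 higher and 4 lower). Endothelial markers ranged over 91.5 to 125, 75.3 to 91.0 and 57.6 to 88.1 (0 of 8 called in IMQ + NS). On the adjusted p alone, 6 of the 8 endothelial markers were lower in IMQ + NS than in control, against 27.1% of all genes. In IMQ + BZLF against control 8 were lower, against 29.2%. Control replicate 2 had the lowest sum of the controls for fibroblast, adipocyte, skeletal muscle, keratinocyte, sebaceous and endothelial markers. For dermal papilla markers it had the highest. The part of these cell types in the results was not tested.

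Some samples carried transcripts of other tissues. Seminal vesicle markers summed to 40.8 FPKM in control replicate 2 and 39.9 in IMQ + BZLF replicate 2 and to at most 0.0441 in the other 10 samples, and neither this list nor the pancreas list was called in any comparison. Pancreas markers in replicates 1 to 4 summed to 208, 217, 239 and 20.8 FPKM in control, 54.2, 59.8, 265 and 0.444 in IMQ + NS, and 199, 212, 223 and 19.98 in IMQ + BZLF, lowest in the replicate numbered 4 of each group. The first principal component, with 76.4% of the variance, placed control replicate 2 at -63.2, the other controls between -122 and -116, and the imiquimod-treated samples between 43.4 and 62.3.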

How the data were processed

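RNA-seq of 12 mouse back skin samples was used as the FPKM table that the authors deposited, with 1 value per gene and sample, normalized for length and depth. The paper describes alignment with Bowtie2 and quantification with eXpress, while the submitters' processing notes name fastp, HISAT2, HTSeq, R 3.2.0 and build mm10, and the sources do not say which made the table. A check asked whether 22966 low values stood for whole numbers of reads, and 24% passed at a tolerance of 0.05. The FPKM that a single read adds shifts with the depth of the sample. This share therefore cannot decide whether counts could be recovered from the values. Counts were not rebuilt and no counting error was computed. Sample sums ran from 444660 to 461199 FPKM in control and from 476676 to 506622 in the imiquimod-treated samples, without overlap.

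Groups came from the sample labels. Each pair of groups was fitted alone with limma 3.58.1 (lmFit, eBayes with trend) in R 4.3.3 on log2(FPKM + 0.1), which understates the change of low genes. Tables and figures used Python 3.11.15, pandas 2.3.3 and matplotlib 3.10.9. The method was tested on simulated data. The 10 genes, the pathway and marker lists and the tests were chosen with earlier results of these data known. All 10 genes were named, as were, of the other pathway genes, every called gene or, where more than 10 were called, the 5 largest rises and 5 largest falls, 12 genes fixed by name, and the most correlated gene of each of the 10. Overlapping genes came from GENCODE for GRCm38.p6, which is mm10. The 21 alternatives changed the added constant, filter, scaling, model, thresholds, replicate block or samples.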

Additional observations from a re-analysis of the deposited data

Results flagged for a closer look

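The highest or lowest sample of each group of 4 was compared with the rest for each of the 10 genes, by the share of the group's range that separates it from its nearest neighbour. Of 30 groups, 4 had a sample beyond Dixon's 95% critical value, and chance gives about 5%. Bmp8a was at 1.72 FPKM in control replicate 2, with the other controls between 0.138 and 0.219 (gap share 0.949), and Bambi was at 5.19 there, with the others between 1.56 and 1.63 (gap share 0.982). Bmp8a was at 9.79 FPKM in IMQ + BZLF replicate 1, with the others between 6.96 and 7.32 (gap share 0.873), and Bambi was at 24.65 there, with the others between 16.9 and 17.7 (gap share 0.89). The same sample of its group stood apart for both genes each time. Bmp8a and Bambi correlated at r = 0.996 over the 12 samples. The 4 cases are therefore not independent and cannot be set against that 5% as separate ones.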

How the results depend on the processing

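Each result was recomputed under 21 alternatives. For the log2 fold changes of the 10 genes, 617 recomputed values kept their direction and side of the threshold, 9 came past it and 4 changed sign. Changes of filter, model, thresholds or replicate block leave a gene's fold change as it was. Under those settings only the side of the threshold could change, so the 617 do not measure how stable the direction is. Without the fold threshold, the 10 genes had 5 higher and 1 lower in IMQ + NS against control and 5 and 1 in IMQ + BZLF against control, and the other pathway genes had 12 and 19 (29.0% and 27.1% of all genes), 14 and 15 (23.8% and 29.2%), and 2 higher in IMQ + BZLF against IMQ + NS (1.28%). In the last comparison Grem1 was called lower, a count of 1, at an unadjusted p and with the replicate block (adjusted p = 0.0133), and with 1 added before the logarithm the other pathway genes had 0 higher. Leaving out each sample in turn gave 0 to 1 of the 10 genes lower (Grem1 without IMQ + BZLF replicate 4) and 0 to 1 other pathway genes higher in that comparison. In IMQ + NS against control it gave 5 to 7 other genes higher and 8 to 10 lower, and in IMQ + BZLF against control 6 to 7 and 6 to 9. Values near 0 changed sign between the imiquimod groups for Bmp7 (0.0054 with median ratio scaling, 0.0030 with quantile normalization) and Nog (-0.026 to 0.186 over samples left out, the lowest without IMQ + NS replicate 3), and against control for Id1 in IMQ + BZLF (-0.019 to 0.246, the lowest without control replicate 1). The cause was not tested. The replicate numbers were not taken to pair the samples. With each gene's group mean subtracted, same-numbered samples of different groups correlated at between -0.152 and 0.26. Replicates 3 and 4 correlated best with their own number in every comparison. Replicate 1 did so only between the imiquimod groups, and replicate 2 in no comparison. Pancreas and seminal vesicle sums followed the number in control and IMQ + BZLF samples, and whether the number marks shared handling was not tested, while the block changed no other call of the 10 genes. Equal sample sums moved the median log2 fold change of all genes in IMQ + NS against control from 0.0535 to -0.0727. In IMQ + BZLF against control that median moved from -0.0182 to -0.115. The table holds no counts, so no limit from depth was computed.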
